A study of Mus musculus with 4 samples.

Results

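The genes described here are 10 genes of melanin synthesis and the melanosome, the organelle in which pigment cells make and store melanin. They were chosen by gene symbol and comprised Tyr, Tyrp1, Dct, Pmel, Mlana, Slc45a2, Slc24a5, Oca2, Gpr143 and Mitf. All 10 were among the 22863 genes listed for these eyes, and all 10 passed the filter on low values that left 17784 genes to test. The eyes came from C3H/f+/+ mice, a pigmented, melatonin-proficient strain that both conditions shared, and the ages of the mice used for sequencing were not stated in the sources used here. In subjective day, mice were sampled at circadian time (CT) 6 after 18 h in darkness, so the clock stood at day without morning light. In objective day, mice were sampled at zeitgeber time (ZT) 6 after morning light followed by 1 h in darkness. Each condition had 2 samples, and each sample pooled the 4 eyes of 1 female and 1 male mouse. The anterior eye and lens were removed, and polyadenylated RNA was sequenced from what remained, namely sclera, choroid, retinal pigment epithelium (RPE) and retina. The comparison addresses what morning light adds to the daytime state of these genes.

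Melanin is made from tyrosine inside melanosomes. Tyr catalyses the rate-limiting first steps, Tyrp1 and Dct act on later intermediates, and Pmel forms the fibrils on which the polymer is laid down. Ion transporters of the melanosome membrane set the conditions under which Tyr works, and Mitf is the transcription factor that drives this gene group in both RPE and melanocytes. The posterior eye holds 2 kinds of pigment cell, the RPE, derived from the neural tube, and the melanocytes of the choroid, derived from the neural crest. RPE melanosomes form mostly before and soon after birth, so adult RPE carries pigment granules that persist for long periods.

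The stretch of DNA before the start of a pigment gene often carries the letters CATGTG, a short form of the site that Mitf and its relatives recognise, and for that reason the stretches that hold it are shown. Windows of 300 bases, 250 before the start of a gene and 50 from it on, were taken from RefSeq on build GRCm38.p6. Such a window was listed for 6 of the 10 genes, namely Tyr, Tyrp1, Dct, Slc24a5, Oca2 and Mitf, with several starts for Mitf. The search read CATGTG on both strands, so that its reverse complement CACATG also counted. Both forms are printed in capitals, 5′ to 3′ on the strand of the gene, and bases from the start on are left out.
Tyr (chr7:87493513-87493592, minus strand): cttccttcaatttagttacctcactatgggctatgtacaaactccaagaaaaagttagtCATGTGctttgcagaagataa
Tyrp1 (chr4:80834133-80834212, plus strand): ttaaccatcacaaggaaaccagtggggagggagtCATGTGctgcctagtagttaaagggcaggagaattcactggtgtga
Dct (chr14:118052381-118052488, minus strand): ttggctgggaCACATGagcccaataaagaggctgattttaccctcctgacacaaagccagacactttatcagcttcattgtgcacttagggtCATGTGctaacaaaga
Slc24a5 (chr2:125068047-125068126, plus strand): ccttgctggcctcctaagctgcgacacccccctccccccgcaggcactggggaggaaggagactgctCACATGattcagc
Oca2 (chr7:56239563-56239642, plus strand): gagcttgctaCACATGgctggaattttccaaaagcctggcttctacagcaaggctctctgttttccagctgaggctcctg

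The letters were found in 5 of the 6 genes with a window and in 5 of their 8 windows. In Tyr they began 21 bases before the start, in Tyrp1 46 bases before it, and in Slc24a5 13 bases before it, there in reverse. In Oca2 they began 186 bases before the start, in reverse, and Dct held them at 150 bases in the forward and at 232 bases in the reverse orientation. No Mitf window held them. Of all 32851 windows in the table, 14.2% held these letters, and of all 27025 genes with a window, 15.9% held them in at least 1. The longer string TCATGTGCT, which contains the shorter one, was found in the windows of Tyr, Tyrp1 and Dct and in 0.408% of all windows. No source of this string independent of these genes is given here, so that share is no test of them. The palindrome CACGTG, which the same factor family also binds, was found in 0 of the 8 windows and in 7.15% of all windows. These matches describe the sequence only.

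The deposited values are read counts that the authors adjusted to a common library size, and their totals ranged from 33278417 to 35236783 per sample. Markers of the RPE were abundant in every sample, with Rpe65, the retinoid isomerase that defines this cell type, between 5121 and 8708. Of the 11 RPE markers, Best1 alone lay at or near 0 (0 to 9.7). Sox10, which marks melanocytes of neural crest origin and also glia of the optic nerve, lay between 524 and 852. Markers of the lens and of the ocular surface were present too, in uneven amounts. The summed values of 7 lens markers were 40680 and 5080 in the subjective day samples and 46742 and 12059 in the objective day samples, so that the sample numbered 1 was the higher in each condition. The summed values of 5 ocular surface epithelium markers were 10375 and 10854 in subjective day against 2965 and 5430 in objective day. Because the tissue was sequenced in bulk, fewer cells of a type and less RNA per cell cannot be told apart in any of the values that follow.

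Per kilobase of all annotated exon bases, Tyrp1 was the highest of the 10 genes, with a mean adjusted count of 1627 per kb over the 4 samples. Pmel (1182 per kb) and Dct (1166 per kb) came next, followed by Mlana at 692 per kb. Slc24a5 (231 per kb), Oca2 (179 per kb) and Tyr (115 per kb) formed a middle range. Slc45a2 (96.7 per kb), Mitf (95.9 per kb) and Gpr143 (79.8 per kb) were lowest. Among genes with close means the order varied by sample, with Dct above Pmel in all but the first subjective day sample. Slc45a2 lay below Mitf in both subjective day samples and above it in both objective day samples. The order also depended on the length used. Per kilobase of the longest transcript, an alternative added after seeing the data, Dct (1988 per kb) lay above Tyrp1 (1692 per kb) and Pmel (1272 per kb), and Slc45a2 (96.7 per kb) was lowest. Transcripts of the rate-limiting enzyme Tyr thus lay below those of Tyrp1 and Dct, which act after it, with either length.

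Of the 10 genes, none differed between objective and subjective day at an adjusted p under 0.05 by limma with Benjamini-Hochberg adjustment over the 17784 genes tested. The background share called was 8.51%, made up of 7.45% of tested genes that were lower and 1.06% that were higher in objective day. At an unadjusted p under 0.05 stood 3 of the 10, namely Dct and Mlana with higher values in objective day and Mitf with lower ones, against 25.4% of all genes tested. The median log2 fold change, objective over subjective day, was 0.089 over the 10 genes and 0.015 over all genes tested. It was positive in 6 and negative in 4 of the 10, and positive in 52.6% of all genes tested. The values of the 2 conditions did not overlap in 4 of the 10 genes, 3 of them higher and 1 lower in objective day, and did not overlap in 56.1% of all genes tested. With 2 samples in each condition, the number of genes called by limma depended on single samples. Leaving out a sample leaves a condition with 1 sample, which is then assumed to vary like the samples of the other condition, so these counts are no independent check. The number was 4 without the first subjective day sample (Dct, Pmel, Mlana and Slc45a2, all with higher values in objective day), where 15.8% of all genes tested were called. It was 2 without the second objective day sample (Dct and Mlana), where 3.85% of all genes were called. Without the second subjective day sample or the first objective day sample limma called none of the 10, and called 7.75% and 4.40% of all genes. At an unadjusted p under 0.05 stood 3 of the 10 in each of these fits, against 21.8% and 14.7% of all genes. The median was -0.02 without the second subjective day sample.

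**Figure D1:**
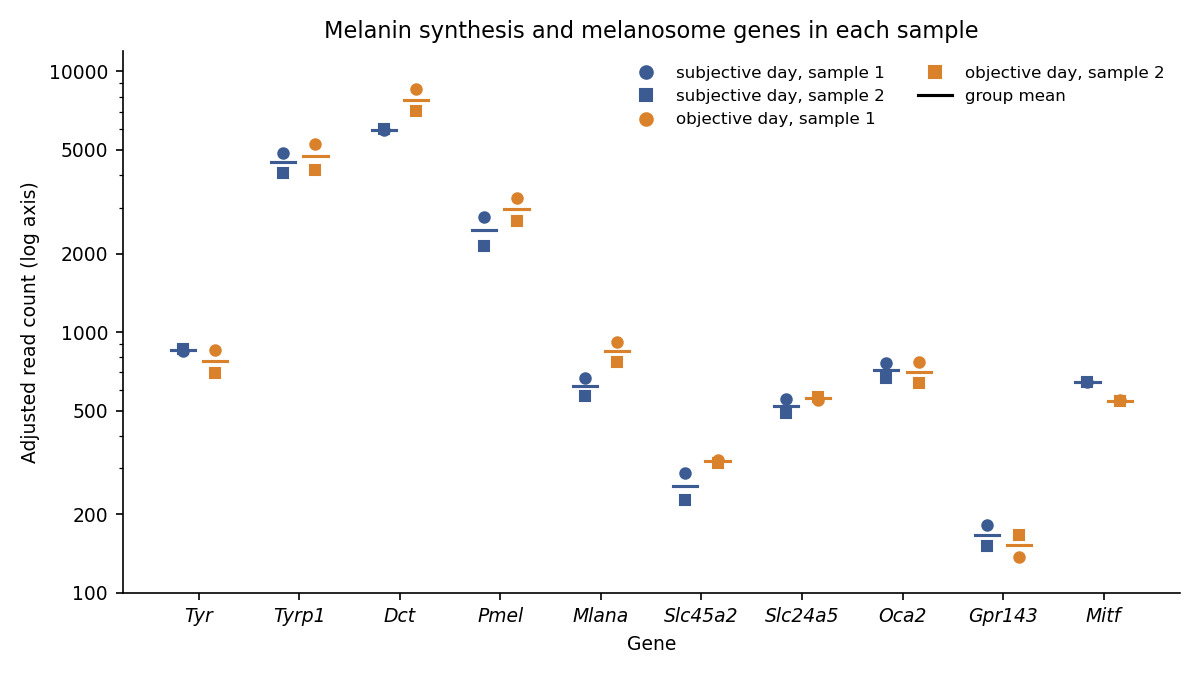
Adjusted read count (log axis) of the 10 genes in each of the 4 samples. Circles are samples numbered 1, squares samples numbered 2, and bars are group means (n = 2). Dct, Mlana and Slc45a2 lay higher in both objective day samples and Mitf lay lower, while the conditions overlapped for the other 6 genes.

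Among the melanin enzymes, Dct, the dopachrome tautomerase (chr14:118012790-118052244, minus strand), had the larger values in objective day. Its adjusted counts were 5938 and 5998 in subjective day against 8541 and 7028 in objective day. The conditions did not overlap, and the subjective day samples lay within 1 SD of 41.9 while the objective day samples spread over an SD of 1069. The mean of the log2 values, converted back, was 29.8% higher in objective day. This is a log2 fold change of 0.38 with a standard error of 0.093 and a 95% interval from 0.16 to 0.59. The adjusted p was 0.0513 by limma, short of the threshold. The fold change was 0.24 without the first objective day sample (limma adjusted p = 0.298) and 0.52 without the second (limma adjusted p = 0.0186). Of all genes tested, 95.5% had a lower fold change.

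Tyr, the tyrosinase that starts the pathway (chr7:87424771-87493512, minus strand), had adjusted counts of 843 and 865 in subjective day against 853 and 696 in objective day. The conditions overlapped, with the second objective day sample below the other three. Its log2 fold change was -0.15 with a 95% interval from -0.39 to 0.097 (limma adjusted p = 0.422), and it was -0.30 without the first objective day sample and -0.0016 without the second. Tyrp1, the tyrosinase-related protein that acts on a late indole intermediate (chr4:80834123-80851719, plus strand), had adjusted counts of 4876 and 4077 in subjective day against 5274 and 4177 in objective day. In each condition the sample numbered 1 was the higher, and that gap exceeded the gap between the condition means of 4476 and 4726. The log2 fold change of Tyrp1 was 0.074 with a 95% interval from -0.22 to 0.37 (limma adjusted p = 0.754), and it was negative without the second subjective day sample (-0.055) or without the first objective day sample (-0.094).

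Of the structural proteins, Mlana, a small membrane protein needed for Pmel maturation (chr19:29697824-29708634, plus strand), had adjusted counts of 669 and 571 in subjective day against 920 and 767 in objective day. The conditions did not overlap, objective day being the higher. The mean of the log2 values, converted back, was 35.8% higher, with a log2 fold change of 0.44, a standard error of 0.12 and a 95% interval from 0.17 to 0.71 (limma adjusted p = 0.0618). This was the highest of the 10 fold changes, and 96.8% of all genes tested had a lower one. Pmel, the fibril-forming protein (chr10:128704195-128720238, plus strand), had adjusted counts of 2763 and 2146 in subjective day against 3258 and 2666 in objective day. The first subjective day sample lay above the second objective day sample, so the conditions overlapped. Its log2 fold change was 0.28 with a 95% interval from -0.039 to 0.59 (limma adjusted p = 0.25). It was 0.093 without the second subjective day sample and 0.13 without the first objective day sample, and 0.46 and 0.42 without the others. Pmel shared 105 of its exonic bases (4.58%) with Dgka on the opposite strand, and reads from overlapping genes could not be separated without strand.

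The transporters of the group were Slc45a2, Slc24a5 and Oca2. Slc45a2, which helps to keep the melanosome lumen from becoming acidic (chr15:11000721-11029233, plus strand), had adjusted counts of 289 and 228 in subjective day against 323 and 315 in objective day. The conditions did not overlap, and the log2 fold change was 0.31 with a 95% interval from -0.0032 to 0.63 (limma adjusted p = 0.201). It was 0.48 without the first subjective day sample and 0.14 without the second. Slc24a5, a potassium-dependent sodium and calcium exchanger (chr2:125068124-125088677, plus strand), had adjusted counts of 552 and 488 in subjective day against 550 and 566 in objective day. Its conditions overlapped, with a log2 fold change of 0.10 and a 95% interval from -0.11 to 0.32 (limma adjusted p = 0.532), and without the second subjective day sample it was 0.015. Its level is uncertain, since 921 of its exonic bases (39.5%) are shared with Myef2 on the opposite strand. Oca2, which forms a melanosomal anion channel (chr7:56239760-56536518, plus strand), had adjusted counts of 761 and 665 in subjective day against 768 and 640 in objective day. The sample numbered 1 was the higher in each condition, and the condition means were 713 and 704. The log2 fold change of Oca2 was -0.021 with a 95% interval from -0.28 to 0.24 (limma adjusted p = 0.93), and its sign turned with the setting, as for Tyr.

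Gpr143, the G-protein-coupled receptor of the melanosome membrane that governs melanosome size (chrX:152781921-152808646, plus strand), had the lowest values of the 10. Its adjusted counts were 182 and 151 in subjective day against 137 and 167 in objective day, which overlapped. The log2 fold change was -0.13 with a 95% interval from -0.52 to 0.26 (limma adjusted p = 0.673), and it was 0.0034 without the first subjective day sample and 0.015 without the first objective day sample.

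Mitf, the transcription factor of the group (chr6:97807052-98021349, plus strand), differed from the other genes in how closely its replicates lay together. Its adjusted counts were 641 and 644 in subjective day against 547 and 545 in objective day, with SDs of 1.9 and 1.69. The objective day mean was 15.0% below the subjective day mean, a log2 fold change of -0.23 with a standard error of 0.078 and a 95% interval from -0.42 to -0.052. The unadjusted p was 0.0186 and the limma adjusted p was 0.115. Leaving out each sample in turn kept the fold change between -0.24 and -0.23, which follows from replicates this close and is no independent check. With the GC trend of the longest transcript removed the fold change was -0.025 (limma adjusted p = 0.933). The sign of its fold change was opposite to that of Dct and Mlana.

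Fold changes across the whole table moved with the GC content of the transcripts, so that its trend was also removed in each sample and the genes tested again. The median GC content of the longest transcript was 46.1% over the 10 genes against 49.8% over all genes tested, and 8 of the 10 lay below the latter. With the trend removed over the longest transcript, 1.20% of 17536 genes were called, and 2 of the 10 genes were called, both higher in objective day. Dct then had a log2 fold change of 0.73 (limma adjusted p = 0.0211) and Tyr one of 0.65 (limma adjusted p = 0.0393). The value of Tyr turned from negative to positive, and it rested on the GC content of a long transcript, 35.2%, against 46.3% in its coding sequence. With the GC content of the longest coding sequence in its place, an alternative added after seeing the data, 2.49% of 15362 genes and none of the 10 were called by limma, with 5 of the 10 at an unadjusted p under 0.05 against 19.6% of all genes in that fit. Tyr was then at 0.044 (adjusted p = 0.856) and Dct at 0.38 (adjusted p = 0.0782). Mlana had log2 fold changes of 0.52 and 0.44 under the transcript and coding sequence versions, both short of the threshold (adjusted p = 0.113 and 0.0911 by limma). Mitf had -0.025 and -0.24, so its fold change lay near 0 in the first of these and near its uncorrected value in the second. Oca2 had 0.014 and 0.048. For the genes other than Tyr and Oca2, the sign of the fold change was the same as deposited and under both corrections.

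**Figure D2:**
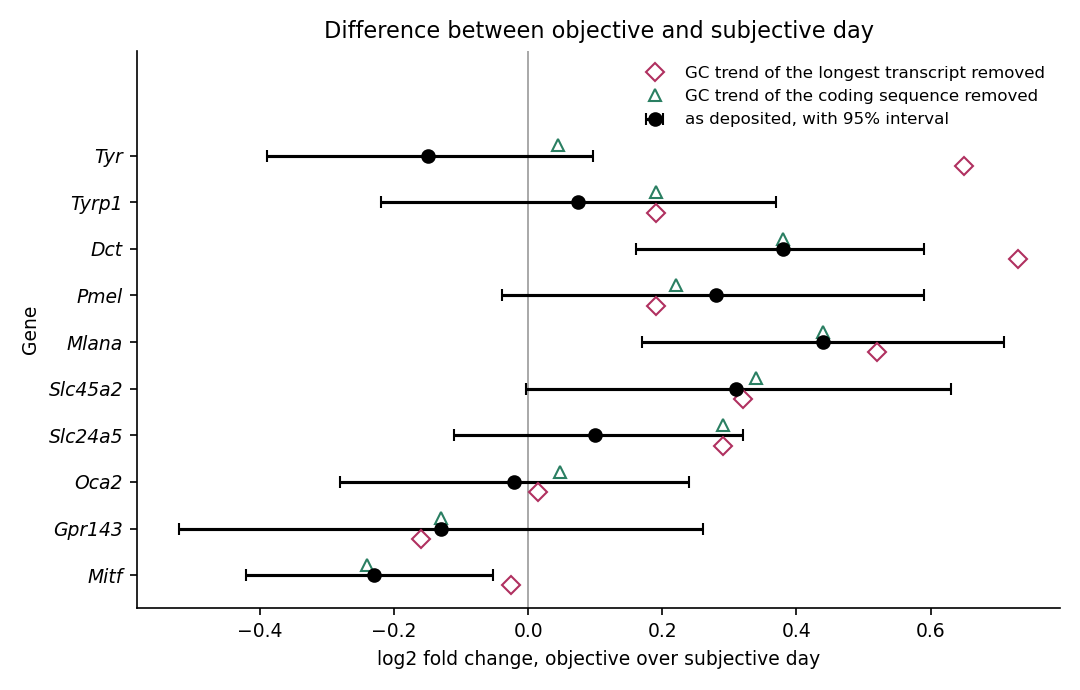
Log2 fold change of each gene, objective over subjective day. Filled points with bars are the values as deposited with their 95% intervals (n = 2 samples in each condition), diamonds the values with the GC trend of the longest transcript removed, and triangles those with the GC trend of the coding sequence removed. Tyr moved from -0.15 to 0.65 under the first correction and to 0.044 under the second, whereas Mlana stayed between 0.44 and 0.52.

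The other genes of melanosome formation and its control were described from 6 lists that held 53 genes. Of these 52 were listed and 51 were tested, since Tfec lay under the filter and Asip had no entry. The test called 5 of the 51 (9.8%), 4 lower and 1 higher in objective day, beside the 8.51% of all genes tested, and their median log2 fold change was 0.058. With the GC trend of the longest transcript removed limma called 0 of them (5 at an unadjusted p under 0.05, against 13.5% of all genes in that fit), and with that of the coding sequence it called 1, Gpnmb. With a variance prior held constant over genes limma called none of them, with 9 at an unadjusted p under 0.05, and no gene of the whole table. The count rose without the first subjective day sample and fell without either objective day sample, and the calls over all genes then moved the same way. Without the second subjective day sample the count did not change, while the calls over all genes were fewer.

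In the sorting machinery that delivers enzymes to the melanosome (the BLOC and AP-3 complexes), 2 of 22 genes fell and none rose, near the background of 7.45% of all genes tested that fell, with a median log2 fold change of 0.043. Ap3s1, the small subunit of the AP-3 adaptor, had adjusted counts of 501 and 688 in subjective day against 341 and 294 in objective day (log2 fold change -0.89, limma adjusted p = 0.0169). Ap3m1, its medium subunit, had 875 and 966 against 715 and 683 (log2 fold change -0.40, limma adjusted p = 0.0285), and shared 29.8% of its exonic bases with Vcl on the opposite strand. The call of Ap3m1 was lost without the second subjective day sample (log2 fold change -0.32, adjusted p = 0.0627) or without the first or the second objective day sample (-0.43 and -0.36, adjusted p = 0.0826 and 0.158). With the coding sequence GC trend removed Ap3s1 was at -0.30 and Ap3m1 at 0.02, neither called.

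Among 5 genes of Pmel processing and related glycoproteins, 1 rose and 1 fell, where 1.06% of all genes tested rose and 7.45% fell, and their median log2 fold change was 0.20. Gpnmb, a melanosomal glycoprotein related to Pmel that macrophages also make, rose. Its adjusted counts were 2797 and 2823 in subjective day against 4842 and 3763 in objective day, a log2 fold change of 0.60 with a standard error of 0.11 (limma adjusted p = 0.0189). That fold change was 0.59 with the transcript GC trend removed (adjusted p = 0.0607) and 0.58 with the coding sequence trend removed (adjusted p = 0.0447). Adam10, a cell-surface metalloprotease, fell from 2136 and 1930 to 1607 and 1608 (log2 fold change -0.34, limma adjusted p = 0.0297). Its value was -0.053 with the transcript trend removed, and its call was lost without the first or the second objective day sample (adjusted p = 0.126 and 0.135), with a log2 fold change of -0.34 in both cases.

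Kitl, the ligand of the Kit receptor through which melanocytes receive growth signals, was the 1 gene called among 7 tested genes of melanocortin and growth signalling, beside 8.51% of all genes tested. In this list 3 genes had an unadjusted p under 0.05, beside 25.4% of all genes. Its adjusted counts were 647 and 708 in subjective day against 395 and 412 in objective day, a log2 fold change of -0.74 with a standard error of 0.089 (limma adjusted p = 0.00558). With the GC trend removed it was at -0.27 over transcripts and -0.21 over coding sequences, not called in either case. The median of that list was 0.10.

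No gene was called by limma in the 3 remaining lists, where 0 genes of transport, 3 of ion, copper and cystine transport and 0 of the regulators had an unadjusted p under 0.05 (25.4% of all genes tested). In melanosome transport, with 6 genes and a median of 0.037, the lowest p belonged to Mlph, the linker between melanosome and motor (log2 fold change 0.20, adjusted p = 0.266), and Myo7a, the motor that places melanosomes in RPE (0.16, adjusted p = 0.285). In ion, copper and cystine transport, with 5 genes and a median of -0.066, it belonged to Slc7a11, the cystine importer (-0.41, adjusted p = 0.119), and Clcn7, a lysosomal chloride transporter (0.17, adjusted p = 0.131). Among 6 tested relatives of Mitf and other regulators, with a median of 0.093, it belonged to Usf1 (0.20, adjusted p = 0.22) and Tfe3 (0.12, adjusted p = 0.294). Whether limma called Slc7a11 and Usf1 depended on the first subjective day sample. Over the samples left out Mlph ranged from 0.081 to 0.31, Myo7a from 0.094 to 0.23 and Slc7a11 from -0.57 to -0.26. Clcn7 ranged from 0.14 to 0.19, Usf1 from 0.082 to 0.32 and Tfe3 from 0.077 to 0.17. Over all 6 lists, 13 of the 51 genes had an unadjusted p under 0.05, beside 25.4% of all genes tested.

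**Figure D3:**
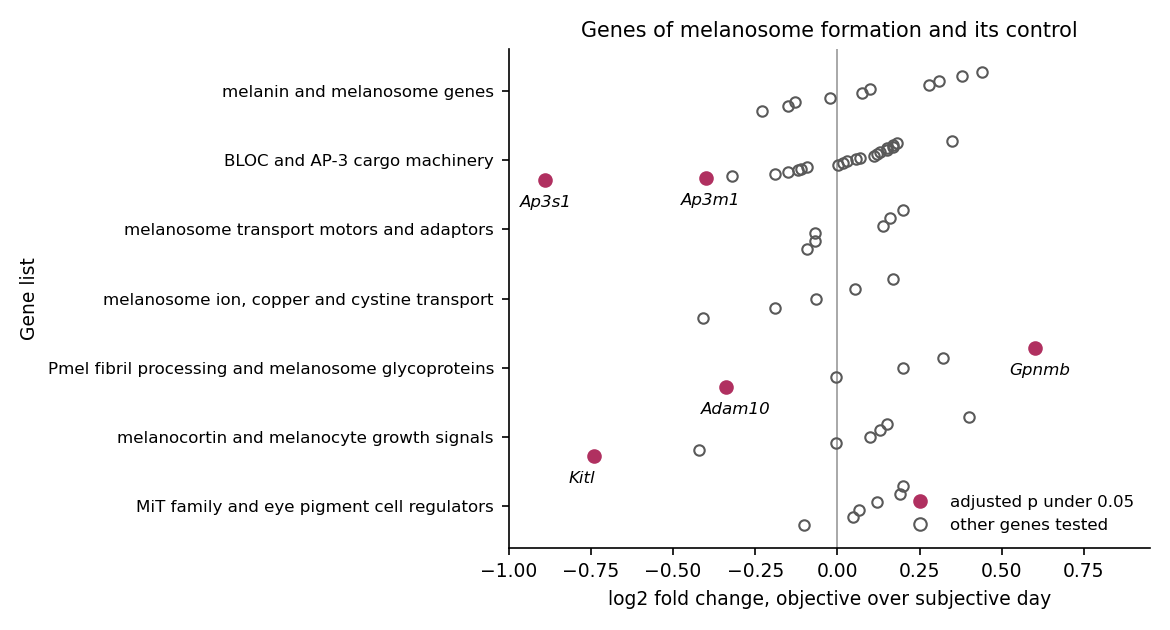
Log2 fold change, objective over subjective day, of the 10 genes and of the 51 tested genes of 6 related lists. Each point is 1 gene, filled where its limma adjusted p was under 0.05. Kitl, Ap3s1, Ap3m1 and Adam10 lay below 0 and Gpnmb above it, and none of the 10 pigment genes was called.

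Summed over the 10 genes, the adjusted counts were 17513 and 15832 in subjective day against 21172 and 17567 in objective day, or 0.0497%, 0.0454%, 0.0607% and 0.0528% of each sample's total. In summed counts the second objective day sample was level with the first subjective day sample (17567 and 17513). In share of the total it lay above that sample (0.0528% and 0.0497%). The sample numbered 1 was above the sample numbered 2 in 7 of the 10 genes in subjective day and in 8 in objective day, and in both conditions in 5 of the 10 against 35.2% of all genes tested.

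The markers of cell types that the tissue could hold were set beside these values, and their counts are to be read against the 7.45% of all genes tested that fell, the 1.06% that rose and the 25.4% with an unadjusted p under 0.05. The 6 melanocyte markers were Sox10, Pax3, Mc1r, Kit, Mlana and Ednrb, of which Mlana is also 1 of the 10 genes. They summed to 3229 and 2719 in subjective day against 3417 and 2930 in objective day. Of the 6, 0 were called by limma (3 at an unadjusted p under 0.05), and their median log2 fold change was 0.14 (range -0.50 to 0.44). Ednrb, the highest of them in subjective day (1124 and 905), was at -0.42, whereas Mc1r was at 0.40. Cells other than melanocytes could add to this sum, and their part was not tested. Sox10 itself had adjusted counts of 663 and 524 against 852 and 608 (log2 fold change 0.29, limma adjusted p = 0.344, and 0.044 to 0.53 when each sample was left out). The 11 RPE markers summed to 110693 and 92235 in subjective day against 108267 and 98908 in objective day. Of the 10 of them that were tested 2 fell (4 at an unadjusted p under 0.05), and their median was -0.013 (range -0.52 to 0.35). The 2 that fell were Ermn, named after its values were seen, and Rpe65. The others of these 4, Rdh5 and Stra6, had higher values in objective day (log2 fold change 0.35 and 0.24). The log2 fold change of Ermn was -0.46, but 0.11 with the transcript and -0.24 with the coding sequence GC trend removed, neither called. Rpe65 had 8708 and 7242 against 5992 and 5121 (log2 fold change -0.52, limma adjusted p = 0.0286). The authors also reported lower Rpe65 in objective day by quantitative RT-PCR in separate samples, which were not used here. The call of Rpe65 was lost without the second objective day sample (log2 fold change -0.41, adjusted p = 0.114) and with either GC trend removed (-0.24 and -0.12). In each condition the sample numbered 1 was the higher for the summed markers of melanocytes, RPE, lens, ciliary body and iris, sclera fibroblasts and choroid endothelium. For the summed markers of ocular surface and blood that sample was the lower. It was also the higher for Tyrp1, Pmel, Mlana, Slc45a2 and Oca2.

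Of the 6 markers of ciliary body and iris, which are pigmented tissues of the anterior eye, 1 rose and their median log2 fold change was 0.16 (range -0.18 to 0.62). They summed to 2305 and 2003 in subjective day against 2465 and 2408 in objective day. Optc, the first of them, had adjusted counts of 547 and 536 against 795 and 878 (log2 fold change 0.62, limma adjusted p = 0.00708), and 0.54 and 0.57 with the GC trends removed. The 4 ocular surface markers that passed the filter all fell, with a median of -1.36 (range -1.46 to -1.12), and Krt5, the basal keratin, had 3144 and 3300 against 854 and 1638 (log2 fold change -1.44, limma adjusted p = 0.0165). Of the 7 lens markers 0 were called by limma and 0 had an unadjusted p under 0.05, with log2 fold changes from -1.14 up to 1.2, and Cryaa, the first of them, had 28080 and 4082 against 36436 and 9885. Of 5 markers of sclera fibroblasts 1 fell (Lum, named after its values were seen and not called with either GC trend removed), with a list median of 0.092 and a range from -0.74 to 0.40, and the collagen gene Col1a1 had 2734 and 1998 against 3334 and 2853. Of 5 markers of choroid endothelium 0 were called by limma (1 at an unadjusted p under 0.05), with a median of 0.12 and a range from -0.14 to 0.44, and Pecam1 had 583 and 522 against 564 and 639. Of 5 blood markers 3 rose, beside 1.06% of all genes tested (Hba-a1, Hbb-bs and Hbb-bt, of which Hba-a1 was also called with either GC trend removed), with a median of 0.55 and a range from 0.11 to 0.98, and the globin gene Hba-a1, which has a near-identical copy so that its level is uncertain, had 1119 and 1203 against 1738 and 1974. In the pair of samples with high lens values the fold changes of Dct and Slc45a2 were 0.52 and 0.16, and in the pair with low lens values 0.23 and 0.46, values from 1 sample against 1. The part of these other tissues in the values of the 10 genes was not tested.

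**Figure D4:**
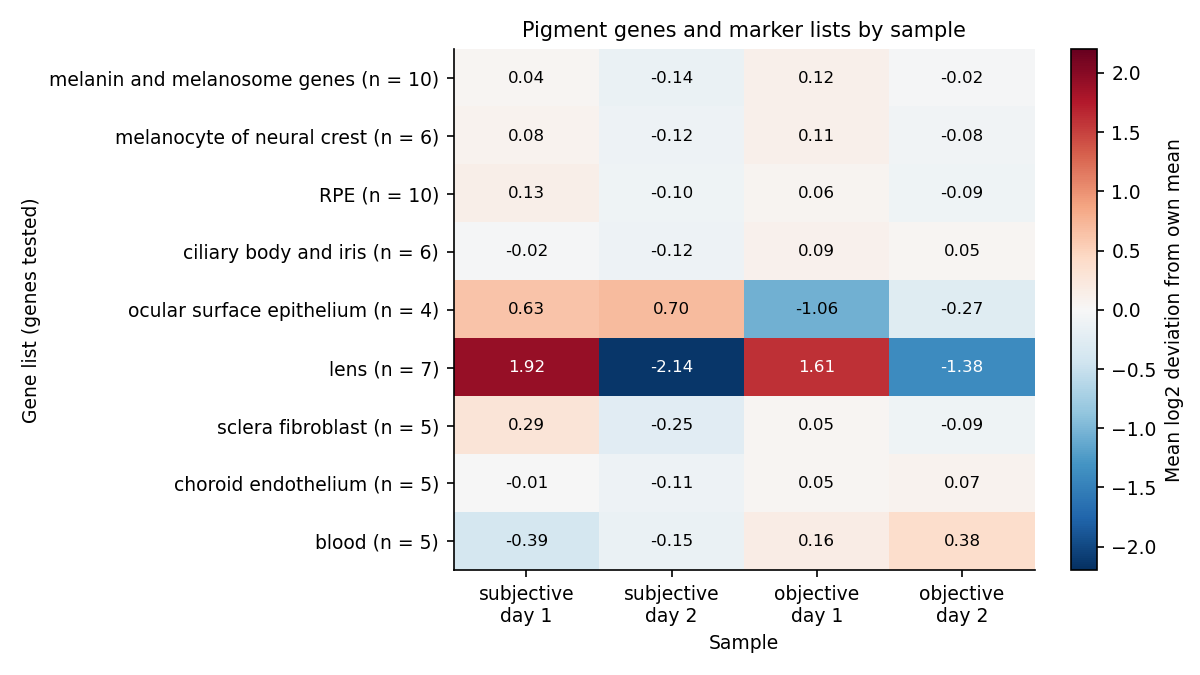
Mean log2 deviation of each gene list from its genes' own means, by sample (rows give the number of genes tested). Lens markers ranged from -2.14 to 1.92 and ocular surface markers from -1.06 to 0.70, while the 10 pigment genes stayed between -0.14 and 0.12. The RPE markers (-0.10 to 0.13) and the melanocyte markers (-0.12 to 0.11) had ranges much like that of the pigment genes. Each value is a mean over genes that differed in direction.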

How the data were processed

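RNA from pooled eyes was sequenced as single 50-base reads, and the authors aligned reads to the mouse Ensembl reference with TopHat2 2.0.9 and Bowtie2 2.1.0, counted them per gene with HTSeq and adjusted the counts with edgeR. The submitters' processing notes also name CASAVA 1.8. The deposited values are read-depth signal, that is, gene counts adjusted by the authors to a common library size with decimals. Raw counts could not be recovered from this table and the reads were not used here, so no count model was fitted and adjusted counts keep no exact counting error. Strand settings of the counting were not given in the sources used here. The table also holds the authors' own log2 fold change, log2 CPM, p-value and FDR columns, which were not used. Unused columns of per-sample values numbered 0.

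A gene was tested where 2 or more samples reached a value of 10. Values were taken as log2(value + 1), which understates changes of low genes, and tested with limma 3.58.1 in R 4.3.3 (variance prior following the mean, moderated two-sided test, Benjamini-Hochberg adjustment over all genes tested, threshold 0.05). The test was checked on simulated data. The biological replicates of a condition are pools of mice, and p-values measure the spread between such pools. Alternatives covered the filter, the pseudocount, scaling, the variance prior, the sample number as a block, a loess fit (span 0.3) of each sample's values on GC content, and leaving out each sample.

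Gene positions, exon lengths and GC content came from GENCODE M21 (GRCm38), with GC content known for 98.6% of tested genes over transcripts and 86.4% over coding sequences. Promoter windows came from RefSeq. The 10 genes and all lists were chosen with earlier results of these data known. Named were all 10 genes, the called genes of each pathway list or otherwise the 2 with the smallest p, the first marker of each marker list, Rpe65 and Krt5. Other genes of the marker lists were named after their values were seen.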

Additional observations from a re-analysis of the deposited data

How the results depend on the processing

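Over 12 settings that left out no sample, the 10 genes gave 120 fold changes, of which 99 kept their sign and their side of the threshold, 12 passed it with the same sign and 9 turned sign. The numbers in the sample names pair no samples by any label, and the deviations of same-numbered samples had a correlation of 0.319 over 17784 genes. With the number as a replicate block, limma called 3 of the 10 genes (Dct, Pmel and Mlana, all higher) and 12 of 51 related genes, beside 20.3% of all genes. It called 5 and 3 with the block and the transcript GC trend removed (9.27% of all genes), and 4 of the 10 with the block and the coding sequence GC trend removed (10.5% of all genes). With the block Clcn7 and Sox10 were also called (adjusted p = 0.0453 and 0.0333 by limma), and with the block and the transcript GC trend removed Rpe65 was (-0.24, adjusted p = 0.00569). With the transcript GC trend removed and no block the counts were 2 and 0 in limma (5 and 5 at an unadjusted p under 0.05), and with the coding sequence trend 1 related gene was called. Scaling to the RPE markers left 3 related genes, with 3.45% of all genes called. A variance prior constant over genes called 0 related genes and 0 of the whole table in limma (9 and 3586 at an unadjusted p under 0.05). The median fold change was 0.24 with the transcript GC trend removed, with or without the block. Leaving out each sample gave 0 to 4 of the 10 genes, 3 to 12 related genes and a median from -0.02 to 0.20. Oca2 turned positive when scaled to the RPE markers (0.012), which shifts all genes alike and turns the sign of any gene this near 0, and with the transcript (0.014) or coding sequence (0.048) GC trend removed, with or without the block. Tyr turned positive likewise (0.65 and 0.044), and Ap3m1 with the coding sequence trend removed (0.02). Leaving out a sample moved Oca2 from -0.15 to 0.11, Gpr143 from -0.27 to 0.015 and Tyrp1 from -0.094 to 0.24. The coding sequence setting and the pairs by lens values were added after seeing the data. In the high lens pair Tyr (0.017), Slc24a5 (-0.0053) and Oca2 (0.013) turned sign, and in the low lens pair Gpr143 did (0.15). Of 16 settings that include leaving out a sample, Gpnmb lost its call in 2, Ap3s1 in 4, Kitl in 5, Ap3m1 in 7 (besides 2 with a turned sign) and Adam10 in 8. The causes were not tested. With 2 samples against 2 an exact permutation test cannot give a p under 0.333, so each p rests on the variance shared over genes.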

Other observations

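The ratio of 2 transcripts within a sample does not depend on that sample's scaling. Of the 45 pairs that the 10 genes form, 29 (64.4%) had ratios that did not overlap between the conditions, beside 52.7% of all pairs of tested genes above 0 in every sample. The ratio of Tyr to Dct, one of these and chosen after its values were seen and therefore given without a test, was 0.142 and 0.144 in the subjective day samples against 0.0999 and 0.099 in the objective day samples. It was lower in objective day by a mean difference of -0.53 on the log2 scale, and the replicates of a condition lay within 0.024 and 0.013. The ratio of Oca2 to Mlana, chosen in the same way, was 1.14 and 1.16 in subjective day against 0.835 and 0.835 in objective day. The ratio of Dct to Mlana was 8.88 and 10.5 in subjective day against 9.28 and 9.17 in objective day, so that it overlapped. Dct and Tyr differ in GC content (41.1% and 35.2% over the longest transcript, 52.4% and 46.3% over the coding sequence), and after removal of either GC trend the log2 fold changes of Dct and Tyr were 0.73 and 0.65 or 0.38 and 0.044. The part of GC content in these ratios was not tested further.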
